A study of Homo sapiens with 6 samples.

Results

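Expression of 10 genes that shape cellular fatty acids was examined in the cell line RCC4, which derives from a human clear cell renal carcinoma without functional VHL. The genes were taken by name and comprised the desaturases SCD, SCD5, FADS1, FADS2 and FADS3, the elongases ELOVL1, ELOVL5 and ELOVL6, and the acyl-CoA synthetases ACSL3 and ACSL4. They are 10 of 60683 genes in the count table, and all 10 were among the 15321 genes with enough counts to be tested. The parental RCC4 line, with the genotype given as wild type (n = 3), was compared with RCC4 cells in which ATF4, a bZIP transcription factor of the integrated stress response, was knocked out (ATF4 KO, n = 3). Neither the method of the knockout nor whether it is a clone or a pool is given, and no treatment is named in either group. Nothing states that the replicates were separate cultures, so the p-values reflect the scatter among these 6 samples alone, and that scatter may be technical.

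Fatty acids enter lipid metabolism once an acyl-CoA synthetase has joined them to coenzyme A. Desaturases then introduce double bonds and elongases lengthen the chain, and together they set how fluid a membrane is and how easily its lipids are oxidised. Clear cell renal carcinoma is known for its stored lipid.

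Values are CPM (read counts scaled to a common library size of 1e6) after TMM scaling, log2 fold changes are ATF4 KO over parental, and the test is the edgeR quasi-likelihood F test with adjustment over all tested genes (p_adj). Library totals lay between 41002611 and 46755358 counts. The ATF4 transcript was retained, at 244 ± 5.97 CPM in parental and 214 ± 8.04 CPM in ATF4 KO cells (SD, n = 3 each, log2 fold change -0.19, p_adj = 3.19e-07), so the transcript level cannot serve as a check of the knockout. All 10 renal and clear cell carcinoma markers were detected, with a summed level of 6424 to 6781 CPM in parental and 7053 to 7277 CPM in ATF4 KO libraries, most of it from VIM (4808 and 5166 CPM). Of these markers 3 were called higher and 4 lower. CA9 rose 5.84-fold, from 16.6 ± 0.554 to 96.9 ± 3.63 CPM, NDUFA4L2 rose 1.70-fold and VIM 1.07-fold, while EPAS1, PAX8, KRT18 and KRT19 fell by 0.48, 0.15, 0.092 and 0.080 on the log2 scale. Among markers of other cell types, CD3E and ALB had 0 counts in every library. The summed level of the whole marker list was 55.8 to 64.2 CPM in parental and 45.3 to 48.1 CPM in ATF4 KO libraries, almost all of it from ACTA2 and PDGFRB, which were both called lower (log2 fold changes -0.22 and -1.06). The part of these marker differences in the results below was not tested. Many genes also moved together with their chromosome: on chromosomes X and 11, which carry 4 of the 10 genes, the median log2 fold change was -0.23 and -0.16. Each gene is therefore also given after removal of the median of its 100 nearest tested neighbours, 50 to each side, a value whose p leaves out the error of that median. For the 10 genes these neighbours spanned 6.68 megabases (FADS3) to 39.6 megabases (ELOVL6), so some windows cover a large part of a chromosome. ATF4 itself lies on chromosome 22, and the median of its neighbours was -0.25, beside its own -0.19. In these bulk samples a lower level per cell and fewer cells of a kind cannot be told apart.

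Of the 10 genes, 5 were higher in ATF4 KO cells (SCD, SCD5, FADS1, FADS2 and ELOVL6) and 2 were lower (FADS3 and ACSL4), while ELOVL1, ELOVL5 and ACSL3 did not pass the test. Among all tested genes 21.2% were called higher and 20.8% lower, 42.0% in all. The directions of SCD, SCD5 and ACSL4 were known when the genes were chosen, so these counts describe the set only. The median log2 fold change of the 10 genes was 0.10, beside 0.01 for all tested genes. The sizes differed widely: SCD5, SCD and ACSL4 changed by more than 0.4 on the log2 scale, whereas the other called genes changed by 0.21 or less. With the neighbour median removed this split did not hold, since ACSL4 was then at -0.19, FADS1 at 0.23 and FADS2 at 0.22. The ATF4 KO libraries lay entirely above the parental libraries for 6 genes and entirely below for 2, beside 25.3% and 24.3% of tested genes.

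**Figure D1:**
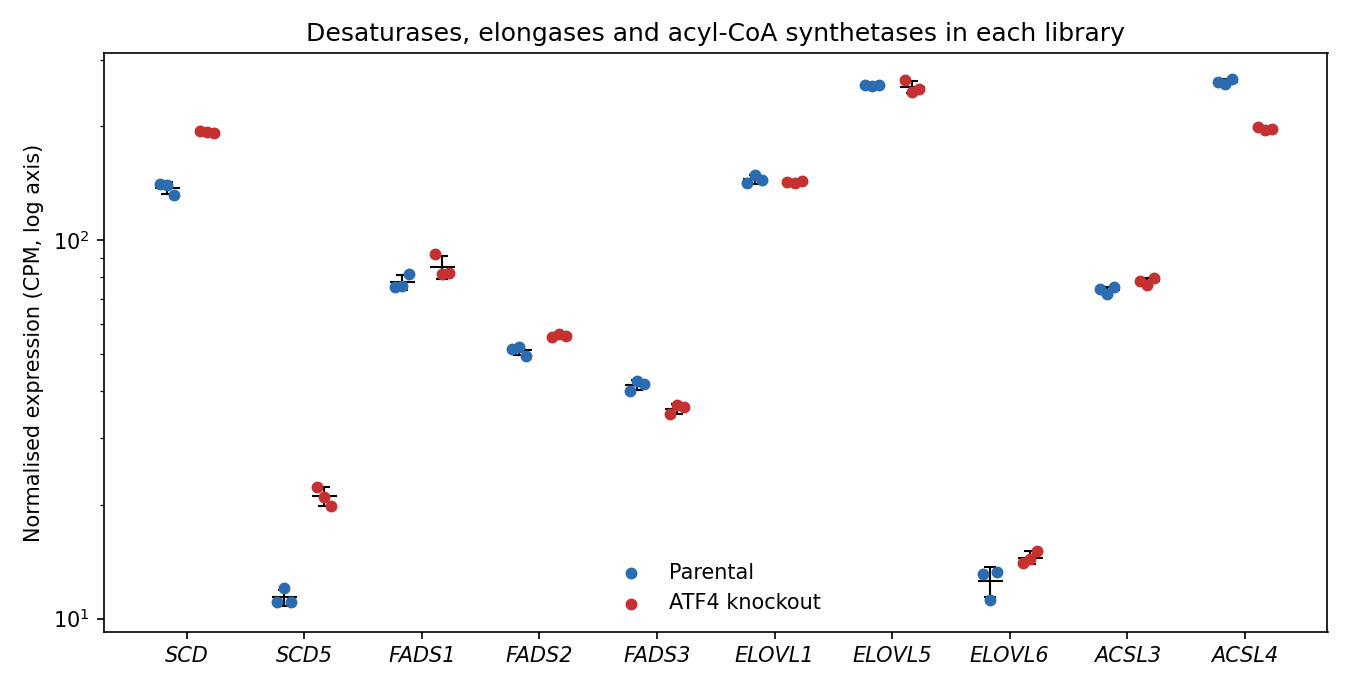
Normalised expression in CPM (log axis) of the 10 genes in each library, blue for parental and red for ATF4 KO RCC4 cells, each with the group mean and a whisker of 1 SD (n = 3). SCD moves from 138 to 193 CPM, SCD5 from 11.4 to 21.0 CPM and ACSL4 from 262 to 197 CPM, while ELOVL1 and ELOVL5 overlap between the groups.

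Both stearoyl-CoA desaturases were expressed at higher levels in ATF4 KO cells. SCD (ENSG00000099194, chromosome 10, 100347124 to 100364834, plus strand, GRCh38) encodes the enzyme that turns stearate into oleate, the main monounsaturated fatty acid of cells. Its level was 141, 140.2 and 132 CPM in the parental libraries and 195, 194 and 192 CPM in the ATF4 KO libraries. The lowest ATF4 KO library thus exceeded the highest parental library by far more than the spread within either group. The mean went from 138 ± 5.10 to 193 ± 1.499 CPM (SD, n = 3), and SCD rose 1.40-fold (0.49 on the log2 scale, SE 0.030, p_adj = 3.58e-20). The SCD pseudogene SCDP1 had 0 to 1 counts per library.

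SCD5 (ENSG00000145284, chromosome 4, 82629539 to 82798857, minus strand) encodes the other human stearoyl-CoA desaturase, which rodents lack. Its level was 11.0, 12.01 and 11.1 CPM in the parental libraries and 22.3, 21.0 and 19.8 CPM in the ATF4 KO libraries, again without overlap. The mean went from 11.4 ± 0.553 to 21.0 ± 1.24 CPM, and SCD5 rose 1.85-fold (0.89 on the log2 scale, SE 0.071, p_adj = 1.11e-15). It had the largest change of the 10 genes, and 97.7% of tested genes had a lower log2 fold change. For SCD this share was 92.6%. Both desaturases stood well above their chromosomal neighbourhood, whose medians were 0.06 for SCD and 0.03 for SCD5. With these medians removed the log2 fold changes were 0.43 (p_adj = 9.89e-18) and 0.86 (p_adj = 4.91e-15). Of the 100 neighbours, 8 had a higher log2 fold change than SCD and 1 had a higher one than SCD5. TMEM150C, the tested gene directly beside SCD5, was called lower with a log2 fold change of -6.85. Whether this loss is linked to the rise of SCD5 was not tested.

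SCD5 remained the minor form. Within each library, the ratio of SCD5 to SCD counts was 0.0783, 0.0857 and 0.0840 in parental cells and 0.115, 0.108 and 0.103 in ATF4 KO cells, so the groups did not overlap. The ratio was 1.32-fold higher in ATF4 KO cells (log2 difference 0.40, two-sided exact permutation p = 0.10, the smallest that 3 against 3 allows, adjusted p = 0.15 over 6 pairs). Divided by exon length, the level was 25.7 ± 0.952 CPM per kilobase for SCD and 2.65 ± 0.129 for SCD5 in parental cells, and 36.1 ± 0.279 and 4.90 ± 0.289 in ATF4 KO cells.

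The promoter sequences of SCD5 and ACSL4, the genes with the largest change in each direction, and of SCD, the relative of SCD5, are shown so that their base composition and motifs can be compared. They are RefSeq sequences on GRCh38.p14, start within 250 bases before the RefSeq start site and end before the outermost GENCODE 29 start of the gene. Capitals mark CCAAT, the box bound by NF-Y, and GCGTG, a core of the hypoxia response element, on either strand.
SCD, chr10:100346983-100347123, plus strand: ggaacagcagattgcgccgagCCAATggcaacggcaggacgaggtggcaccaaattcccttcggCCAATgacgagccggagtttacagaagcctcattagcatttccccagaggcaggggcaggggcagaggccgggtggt
SCD5, chr4:82798858-82799046, minus strand: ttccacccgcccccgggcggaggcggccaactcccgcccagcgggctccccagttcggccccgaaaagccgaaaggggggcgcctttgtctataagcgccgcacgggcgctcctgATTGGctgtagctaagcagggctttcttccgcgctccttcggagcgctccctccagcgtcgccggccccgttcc
ACSL4, chrX:109733404-109733507, minus strand: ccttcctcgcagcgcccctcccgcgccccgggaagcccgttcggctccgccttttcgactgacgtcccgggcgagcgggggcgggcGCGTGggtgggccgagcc
The SCD stretch holds 2 CCAAT boxes and the SCD5 stretch 1 on the reverse strand, and the ACSL4 stretch holds 1 GCGTG. The stretches differ in length, and the whole SCD window also has a GCGTG, nearer to the start site. These are matches of letters, not measured sites.

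Across the whole RefSeq windows, which run from 250 bases before to 50 after the start site, the 10 genes had 11 windows because FADS2 has 2 start sites. CCAAT occurred in 7 of the 11 (SCD, SCD5, FADS2, FADS3, ELOVL1, ELOVL5 and ACSL3), beside 34.6% of all 35116 windows. GCGTG occurred in 7 (SCD, FADS1, FADS2, FADS3, ELOVL1, ACSL3 and ACSL4, beside 36.5% of all) and ACGTG, the other hypoxia core, in 3 (21.4%). CACGTG, an E-box that contains ACGTG, occurred in 1, that of ELOVL5 (7.26%). The C/EBP-ATF element bound by ATF4 with its C/EBP partners, searched as TGATGCAAT and TGATGNAAN, was in 0 of the 11 windows, beside 0.236% and 3.61% of all. The sterol element bound by SREBP, searched as TCACCCCAC and TCACNCCAC, was also in 0, beside 0.43% and 1.13%. Each match to TGATGCAAT or TCACCCCAC is also a match to its degenerate form, and both strands were searched. Where so few windows hold an element, 0 of 11 says little. Sequence outside the windows and other variants of these elements were not searched. The GC content of the windows was 66.3% for SCD, 70.7% for SCD5 and 77.7% for ACSL4, beside a median of 58.7%.

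FADS1, FADS2 and FADS3 lie together on chromosome 11, and they did not move together. FADS2 (ENSG00000134824, 61792980 to 61867354, plus strand) encodes the enzyme of the first desaturation step that leads from dietary linoleic and linolenic acid to polyunsaturated fatty acids. Its level was 51.7, 52.2 and 49.5 CPM in the parental libraries and 55.5, 56.4 and 55.8 CPM in the ATF4 KO libraries. The groups did not overlap, and FADS2 rose 1.09-fold (log2 fold change 0.13, SE 0.042, p_adj = 0.0103). Without parental replicate 3 it was no longer called (0.11, p_adj = 0.0643).

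FADS1 (ENSG00000149485, 61799625 to 61829318, minus strand) encodes the later desaturase of the same route, which makes arachidonic and eicosapentaenoic acid. Its level was 75.4, 75.6 and 81.27 CPM in the parental libraries and 92.0, 81.29 and 81.9 CPM in the ATF4 KO libraries. The highest parental and the lowest ATF4 KO library were nearly equal, and ATF4 KO replicate 1 stood apart from the other 2. FADS1 rose 1.10-fold (log2 fold change 0.13, SE 0.041, p_adj = 0.00838), and the call was lost without ATF4 KO replicate 1 (0.071, p_adj = 0.182) or without parental replicate 1 (0.12, p_adj = 0.0594). The ratio of FADS1 to FADS2 counts overlapped between the groups, with means on the log2 scale of 0.60 ± 0.10 and 0.60 ± 0.11 (exact permutation p = 0.80). FADS1 and FADS2 share 490 exon bases on opposite strands, 4.79% of the FADS1 and 4.44% of the FADS2 exon sequence, and FADS2 shares 49 with FEN1 on its own strand. Since the strand setting is not given, reads from these bases could be lost or misassigned.

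FADS3 (ENSG00000221968, 61873519 to 61892051, minus strand) encodes a desaturase that acts on the sphingoid base of ceramides. Its level was 40.0, 42.6 and 41.6 CPM in the parental libraries and 34.7, 36.8 and 36.2 CPM in the ATF4 KO libraries, without overlap. FADS3 fell 1.15-fold (log2 fold change -0.21, SE 0.048, p_adj = 0.000363). The ratio of FADS3 to FADS2 counts fell by 0.34 on the log2 scale, from 0.774, 0.816 and 0.842 to 0.625, 0.652 and 0.649 (exact permutation p = 0.10, the smallest possible, adjusted p = 0.15).

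The neighbourhood of the FADS genes was itself lower in ATF4 KO cells, with a median log2 fold change of -0.09 and 37 of the 100 genes around FADS1 called lower against 16 higher. With this median removed, FADS1 and FADS2 were higher by 0.23 (p_adj = 3.18e-05) and 0.22 (p_adj = 1.91e-05), and FADS3 was no longer called (-0.11, p_adj = 0.0609). FADS1, FADS2 and FADS3 share this median, so its removal moved all of their values up alike. The larger rises and the smaller fall follow from the signs the genes had before.

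**Figure D2:**
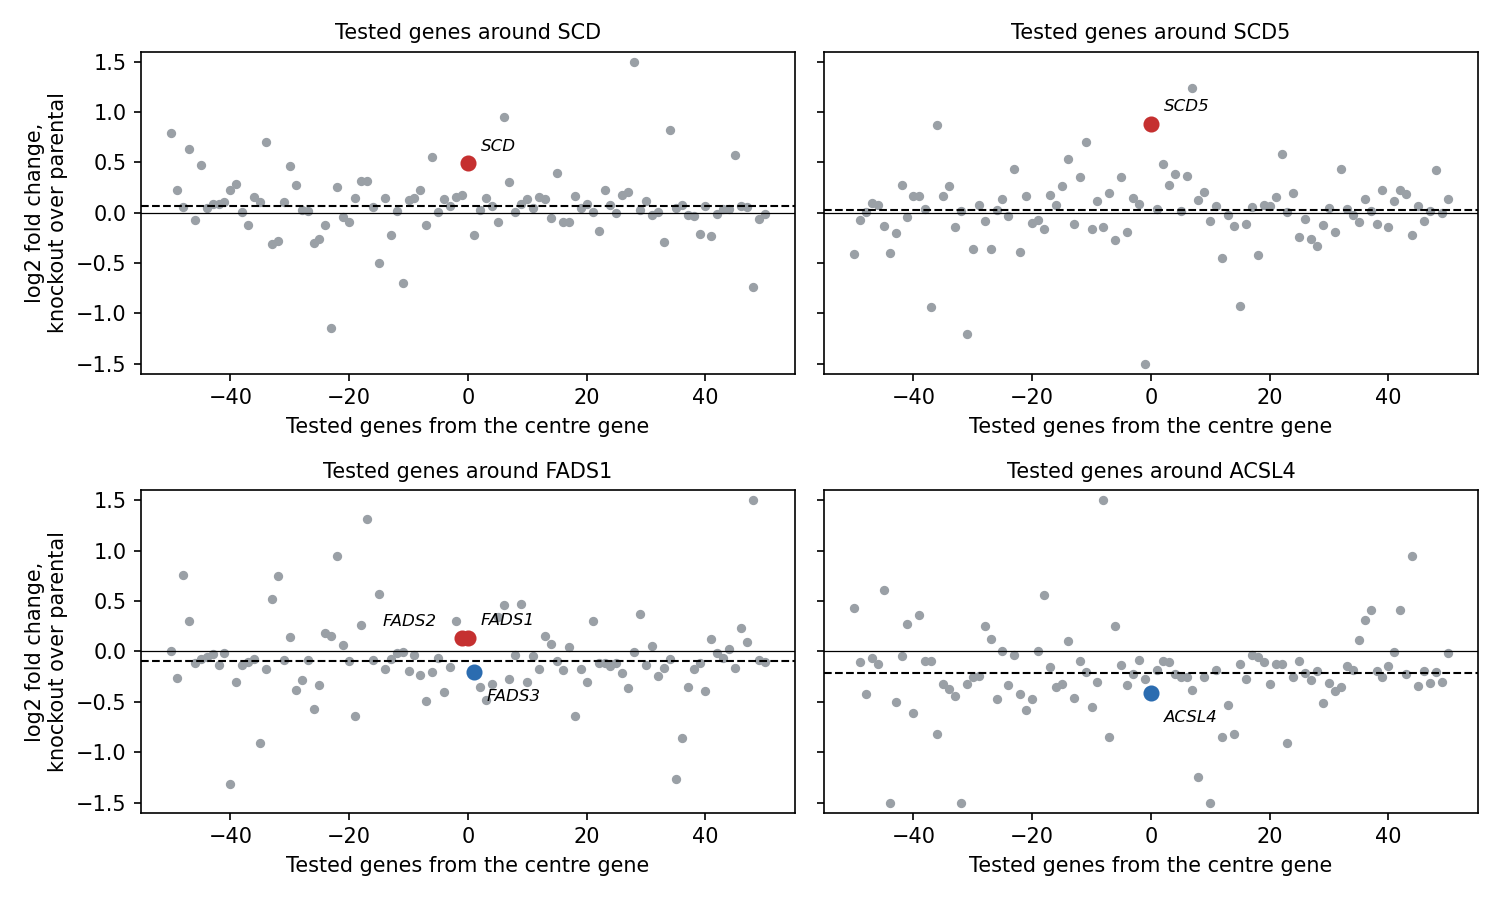
Log2 fold change (ATF4 KO over parental, n = 3 per group) of tested genes by their place along the chromosome, counted from SCD, SCD5, FADS1 or ACSL4 (at 0); grey points are neighbours, coloured points the named genes, and the dashed line is the median of the 100 neighbours. The 6 neighbours beyond 1.5 in either direction are drawn at the edge, among them TMEM150C beside SCD5, at -6.85. The dashed line lies at 0.06 around SCD, 0.03 around SCD5, -0.09 around FADS1 and -0.22 around ACSL4.

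Of the elongases ELOVL6 was called higher, and ELOVL1 and ELOVL5 did not pass the test. ELOVL6 (ENSG00000170522, chromosome 4, 110045846 to 110199199, minus strand) lengthens palmitate to stearate, the substrate of SCD. Its level was 13.1, 11.2 and 13.3 CPM in the parental libraries and 13.98, 14.3 and 15.1 CPM in the ATF4 KO libraries, so that the groups did not overlap, and parental replicate 2 was the lowest library. ELOVL6 rose 1.16-fold (log2 fold change 0.21, SE 0.077, p_adj = 0.0251). The call was lost without parental replicate 2 (0.13, p_adj = 0.218), without ATF4 KO replicate 2 (p_adj = 0.0518) or 3 (p_adj = 0.114), with DESeq2 (p_adj = 0.0548) and with the neighbour median of 0.09 removed (0.12, p_adj = 0.229).

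ELOVL5 (ENSG00000012660, chromosome 6, 53267398 to 53349179, minus strand) extends polyunsaturated acyl chains between the steps of FADS2 and FADS1. Its level was 258, 256 and 257 CPM in the parental libraries and 266, 247 and 251 CPM in the ATF4 KO libraries, which enclosed the parental values. The log2 fold change was -0.013 (95% interval -0.07 to 0.04, p_adj = 0.755). With its neighbour median of -0.09 removed it was called higher (0.081, p_adj = 0.0218).

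ELOVL1 (ENSG00000066322, chromosome 1, 43363397 to 43368074, minus strand) makes very long saturated and monounsaturated chains, which are used in sphingolipids. Its level was 141, 149 and 144 CPM in the parental libraries and 142, 141 and 143 CPM in the ATF4 KO libraries, and the groups overlapped. The log2 fold change was -0.026 (95% interval -0.09 to 0.03, p_adj = 0.534). With its neighbour median of 0.07 removed it was called lower (-0.098, p_adj = 0.00766). The ratio of ELOVL6 to ELOVL5 counts rose from 0.0510, 0.0438 and 0.0517 to 0.0527, 0.0581 and 0.0601 (exact permutation p = 0.10, adjusted p = 0.15), and the ratio of ELOVL1 to ELOVL5 overlapped between the groups (p = 0.70).

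ACSL4 was lower in ATF4 KO cells while ACSL3 did not pass the test. ACSL4 (ENSG00000068366, chromosome X, 109624244 to 109733403, minus strand) activates arachidonic acid and other polyunsaturated fatty acids, which places them in phospholipids that can be peroxidised. Its level was 261, 258 and 266 CPM in the parental libraries and 199.7, 196 and 197 CPM in the ATF4 KO libraries, without overlap. The mean went from 262 ± 4.09 to 197 ± 2.06 CPM, and ACSL4 fell 1.33-fold (-0.41 on the log2 scale, SE 0.028, p_adj = 2.87e-18). Its neighbours on chromosome X had a median of -0.22, with 58 of 100 called lower and 7 higher, and 21 had a lower log2 fold change than ACSL4. With this median removed ACSL4 was still called lower, by a smaller amount (-0.19, SE 0.028, p_adj = 1.17e-07).

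ACSL3 (ENSG00000123983, chromosome 2, 222860934 to 222944639, plus strand) supplies activated fatty acids to growing lipid droplets. Its level was 74.2, 72.0 and 75.2 CPM in the parental libraries and 77.9, 76.1 and 79.5 CPM in the ATF4 KO libraries. The groups did not overlap, but the log2 fold change of 0.077 did not pass the test after adjustment (95% interval 0.0035 to 0.15, p_adj = 0.0863). With total-count scaling it did (0.10, p_adj = 0.0192). With its neighbour median of 0.03 removed ACSL3 was at 0.049 and was not called. The ratio of ACSL4 to ACSL3 counts was 3.52, 3.59 and 3.54 in parental and 2.56, 2.57 and 2.48 in ATF4 KO libraries, 1.40-fold lower (log2 difference -0.49, exact permutation p = 0.10, the smallest possible, adjusted p = 0.15). This ratio varied little within a group, with SDs of 0.013 and 0.029 on the log2 scale. It was not adjusted for the chromosomal neighbours, whose medians were -0.22 around ACSL4 and 0.03 around ACSL3.

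**Figure D3:**
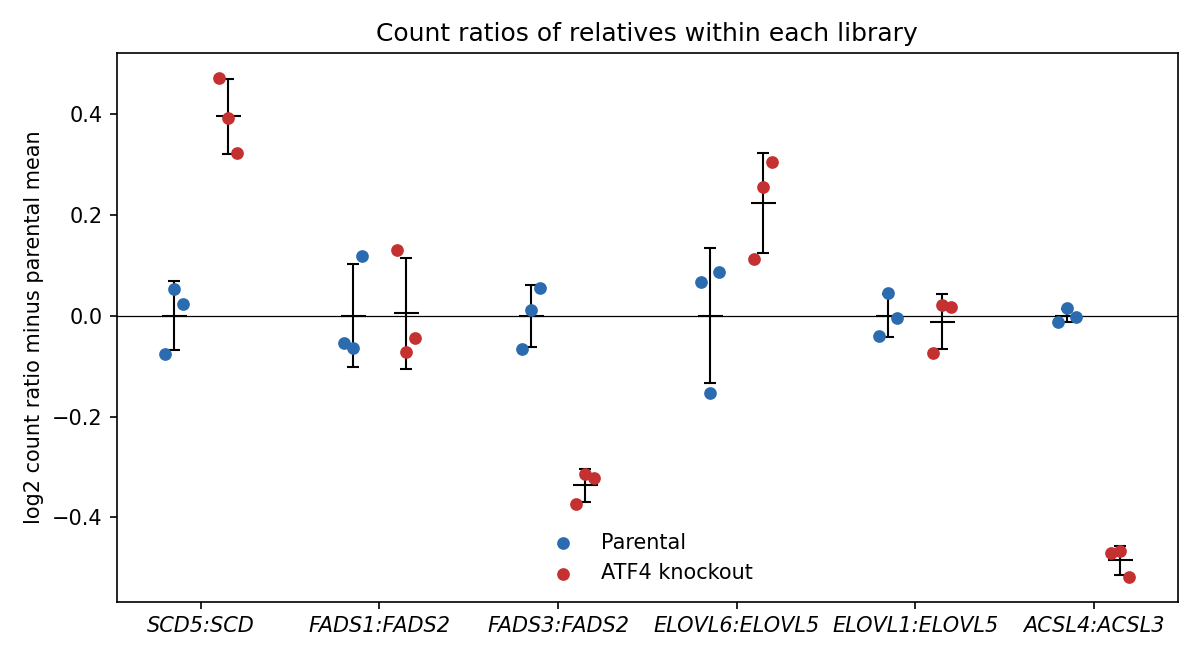
Log2 ratio of counts between relatives in each library, minus the parental mean of the pair, blue for parental and red for ATF4 KO, with the mean and SD (n = 3 per group). SCD5:SCD and ELOVL6:ELOVL5 lie higher in ATF4 KO cells by 0.40 and 0.22, FADS3:FADS2 and ACSL4:ACSL3 lie lower by 0.34 and 0.49, and the other 2 pairs overlap.

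**Figure D4:**
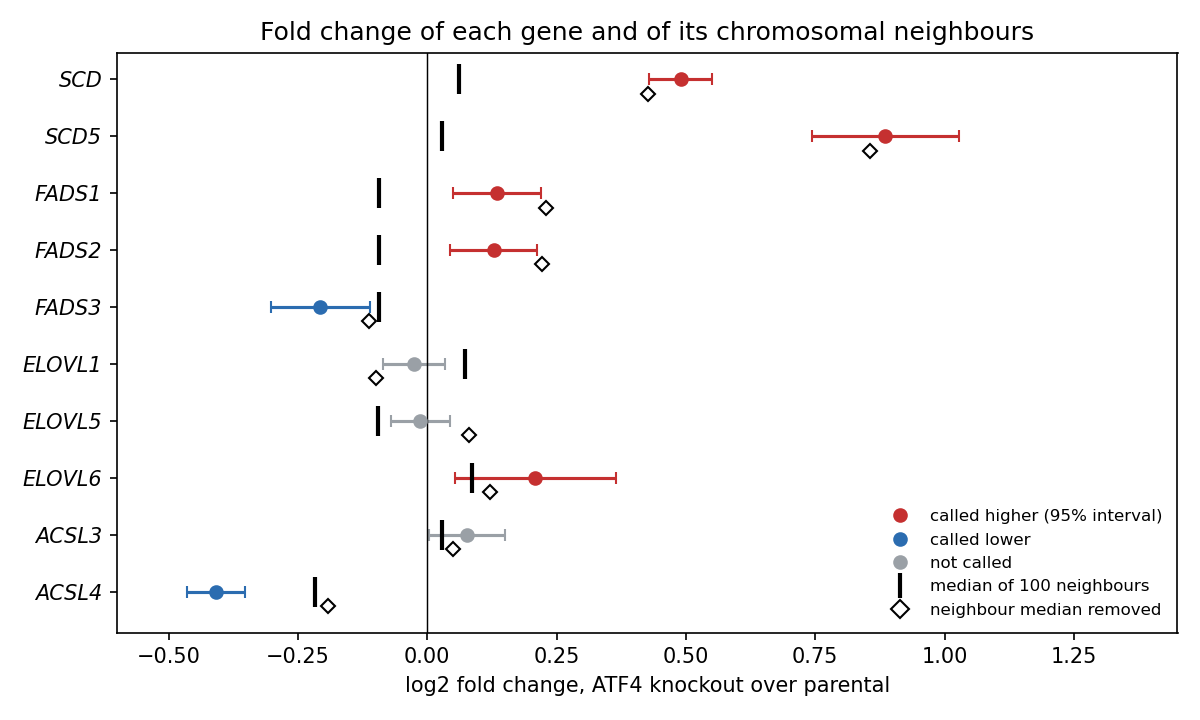
Log2 fold change (ATF4 KO over parental, n = 3 per group) of each gene with its 95% interval, red for called higher, blue for called lower and grey for not called; vertical bars show the median of 100 chromosomal neighbours and diamonds the value with that median removed. ACSL4 moves from -0.41 to -0.19, whereas SCD5 stays near 0.86 and SCD near 0.43.

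Per kilobase of exon, ELOVL5 and ELOVL1 had the highest levels of the 10 genes in both groups, at 67.4 ± 0.234 and 57.8 ± 1.53 CPM per kilobase in parental cells and 66.8 ± 2.59 and 56.8 ± 0.434 in ATF4 KO cells. ACSL4 (40.8 ± 0.638) and then SCD (25.7 ± 0.952) came next in parental cells, and they exchanged places in ATF4 KO cells (30.8 ± 0.320 and 36.1 ± 0.279). ACSL3, FADS1, FADS3, FADS2, SCD5 and ELOVL6 followed in both groups, from 10.2 ± 0.225 down to 1.72 ± 0.159 in parental cells. Libraries of neighbours in this order did not overlap, except for FADS2 (5.07 ± 0.0431) and SCD5 (4.90 ± 0.289) in ATF4 KO cells. These levels rest on all annotated exons of a gene and therefore on the GENCODE 29 lengths.

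Other desaturases, elongases and acyl-CoA synthetases changed in both directions. Of 21 listed relatives 14 were tested, with 3 higher and 5 lower (57.1% called, beside 42.0% of all tested genes). The list median was -0.03. ACSL5, a synthetase of the endoplasmic reticulum and mitochondria, rose from 37.8 ± 0.870 to 56.0 ± 3.02 CPM (0.57 on the log2 scale, SE 0.046, p_adj = 2.05e-15). ELOVL2, which extends long polyunsaturated chains, rose from 5.54 ± 0.181 to 7.44 ± 0.955 CPM (0.43, p_adj = 0.00106). ELOVL3 had 6, 2 and 5 counts in the parental and 10, 15 and 14 in the ATF4 KO libraries (p_adj = 0.0236), and was not called without parental replicate 2 (p_adj = 0.136), without ATF4 KO replicate 2 (p_adj = 0.0852) or 3 (p_adj = 0.0621), without the low-count filter (p_adj = 0.0739) or with DESeq2 (p_adj = 0.0780).

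ACSM3, a mitochondrial medium-chain synthetase, had the largest decrease among the relatives, from 97.7, 103 and 84.0 CPM to 38.3, 42.4 and 48.0 CPM (-1.14 on the log2 scale, SE 0.12, p_adj = 0.00219). ACSL1, the broad long-chain synthetase of fat, liver and heart, fell by 0.30 on the log2 scale (p_adj = 2.37e-06). ELOVL7 fell by 0.21, and the fatty acid transport proteins SLC27A1 and SLC27A3 fell by 0.24 and 0.36. Another 7 relatives were not tested, none of them above 7 counts in any library.

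Genes listed as partners of the desaturases and elongases also divided evenly. Of 10 tested genes of the elongation cycle and of electron supply 3 were higher and 3 lower, with a median of 0.03. The called share was 60%, beside 42.0% of all tested genes. Cytochrome b5 is an electron carrier with 2 genes, CYB5A and CYB5B, and both rose, by 0.38 (SE 0.058, p_adj = 3.28e-07) and 0.21 (SE 0.036, p_adj = 3.31e-06) on the log2 scale. Whether either form serves the desaturases in these cells was not tested. TECR, the last reductase of the elongation cycle, rose by 0.13. HSD17B12, its ketoacyl reductase, fell by 0.35 (p_adj = 6.05e-10), and stayed lower by 0.14 with its chromosome 11 neighbours removed (p_adj = 0.00656). CYB5R3, which reduces cytochrome b5, fell by 0.28 (p_adj = 7.94e-12), but lies on chromosome 22, and with the neighbour median removed its log2 fold change was 0.0073 (p_adj = 0.873). CYB5R1 fell by 0.16 (p_adj = 0.0157), a call lost without parental replicate 1 (p_adj = 0.0735) or ATF4 KO replicate 3 (p_adj = 0.0890).

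Genes of fatty acid synthesis were not higher as a list. Of 10 tested, 1 was higher and 5 lower (60% called, beside 42.0% of all tested genes), and the median was -0.12. ACLY, which makes cytosolic acetyl-CoA from citrate, rose from 362 ± 3.83 to 407 ± 3.53 CPM (log2 fold change 0.17, p_adj = 5.64e-07). FASN, the fatty acid synthase, was at 179 ± 10.2 and 171 ± 3.20 CPM (-0.068, p_adj = 0.0815). It was called lower without parental replicate 2 (-0.097, p_adj = 0.0208) or 3 (-0.086, p_adj = 0.0384) and with the neighbour median removed (-0.14, p_adj = 0.000292). ACACA, which makes malonyl-CoA, was at 120 ± 4.17 and 116 ± 0.899 CPM (-0.041, p_adj = 0.320), and was called lower with the neighbour median removed (-0.14, p_adj = 0.000226).

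The 5 lower genes of this list were ACSS2, MID1IP1, SLC25A1, MCAT and ME1, at -0.46, -0.37, -0.36, -0.23 and -0.17. They lie on chromosomes 20, X, 22, 22 and 6. With the neighbour median removed ACSS2, which makes acetyl-CoA from acetate, was still called (-0.29, p_adj = 2.83e-05), and MID1IP1, SLC25A1, ME1 and MCAT were not (p_adj = 0.0545, 0.152, 0.205 and 0.443). MCAT was also not called without ATF4 KO replicate 3 (p_adj = 0.0533).

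Among regulators and readouts of lipogenic transcription 4 of 17 tested genes were higher and 8 lower, with a median of -0.07. The called share was 70.6%, beside 42.0% of all tested genes. SREBF1, which encodes the SREBP factor of fatty acid synthesis, rose from 37.4 ± 0.800 to 42.1 ± 0.830 CPM (0.17 on the log2 scale, SE 0.047, p_adj = 0.00252). INSIG1 and INSIG2, which retain SREBP in the endoplasmic reticulum, rose by 0.20 and 0.44, and MLX rose by 0.20 (not called with the neighbour median removed, p_adj = 0.0562). PNPLA3, a lipid droplet protein induced by SREBP, fell from 32.4 ± 0.765 to 16.6 ± 0.652 CPM (-0.96, p_adj = 1.35e-20; -0.67 with its chromosome 22 neighbours removed). PPARD and MBTPS2 fell by 0.45 and 0.40. The neighbour medians were -0.07 around PPARD and -0.25 around MBTPS2, which lies on chromosome X. PPARA and SREBF2, both on chromosome 22, fell by 0.47 and 0.29. With the neighbour median removed PPARA was at -0.20 (p_adj = 0.000864) and SREBF2 was not called (-0.027, p_adj = 0.534).

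Genes that place polyunsaturated chains in phospholipids, release them or handle their peroxides were called about as often as tested genes at large (42.9% beside 42.0%), with 1 of 14 higher and 5 lower (median -0.07). LPCAT1, a lysophosphatidylcholine acyltransferase that prefers saturated chains, rose from 391 ± 3.05 to 516 ± 4.28 CPM (log2 fold change 0.40, p_adj = 1.59e-18; 0.14 with its chromosome 5 neighbours removed). LPCAT3, which prefers polyunsaturated chains, was at 39.2 ± 1.39 and 41.1 ± 0.605 CPM (0.066, p_adj = 0.279), and was called higher with the neighbour median removed (0.15, p_adj = 0.00898). GPX4, the peroxidase that reduces phospholipid peroxides, fell from 274 ± 5.27 to 247 ± 5.33 CPM (-0.15, SE 0.028, p_adj = 1.99e-05). ALOX5, a lipoxygenase, fell from 53, 71 and 47 counts to 24, 20 and 25 counts (p_adj = 6.65e-05), and PEBP1, which binds lipoxygenases, fell by 0.13 (not called with the neighbour median removed, p_adj = 0.299). PTGS1 and MBOAT7 fell by 0.54 and 0.091, and were not called without ATF4 KO replicate 1 (p_adj = 0.0601 and 0.142). MBOAT7 was also lost without parental replicate 1 (p_adj = 0.0731) or 2 (p_adj = 0.146). Without ATF4 KO replicate 1 the list held 3 lower and 2 higher genes, without parental replicate 2 it held 2 higher, and without ATF4 KO replicate 3 it held 7 lower.

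Genes of fatty acid oxidation and acyl-CoA hydrolysis were called about as often as tested genes at large (44.4% beside 42.0%). Of 27 tested, 7 were higher and 5 lower, with a median of 0.02. Without ATF4 KO replicate 1, 4 were higher. ECI1, an isomerase needed to oxidise unsaturated fatty acids in mitochondria, rose from 51.9 ± 0.974 to 76.6 ± 2.67 CPM (0.56 on the log2 scale, SE 0.040, p_adj = 8.33e-18). DECR1, the reductase that acts on polyunsaturated chains in the same route, fell from 63.0 ± 2.25 to 53.4 ± 0.975 CPM (-0.24, p_adj = 2.73e-06). ACADS, the short-chain dehydrogenase, fell by 0.28, and the thioesterases ACOT9, ACOT13 and ACOT8 fell by 0.26, 0.19 and 0.17. With the neighbour median removed ACOT9 and ACOT8, on chromosomes X and 20, were not called (p_adj = 0.769 and 0.933), but over the whole list that setting gave 5 higher and 7 lower genes. ACOT8 was also lost without parental replicate 1 (p_adj = 0.0718) or 2 (p_adj = 0.0685) and without ATF4 KO replicate 2 (p_adj = 0.114).

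**Figure D5:**
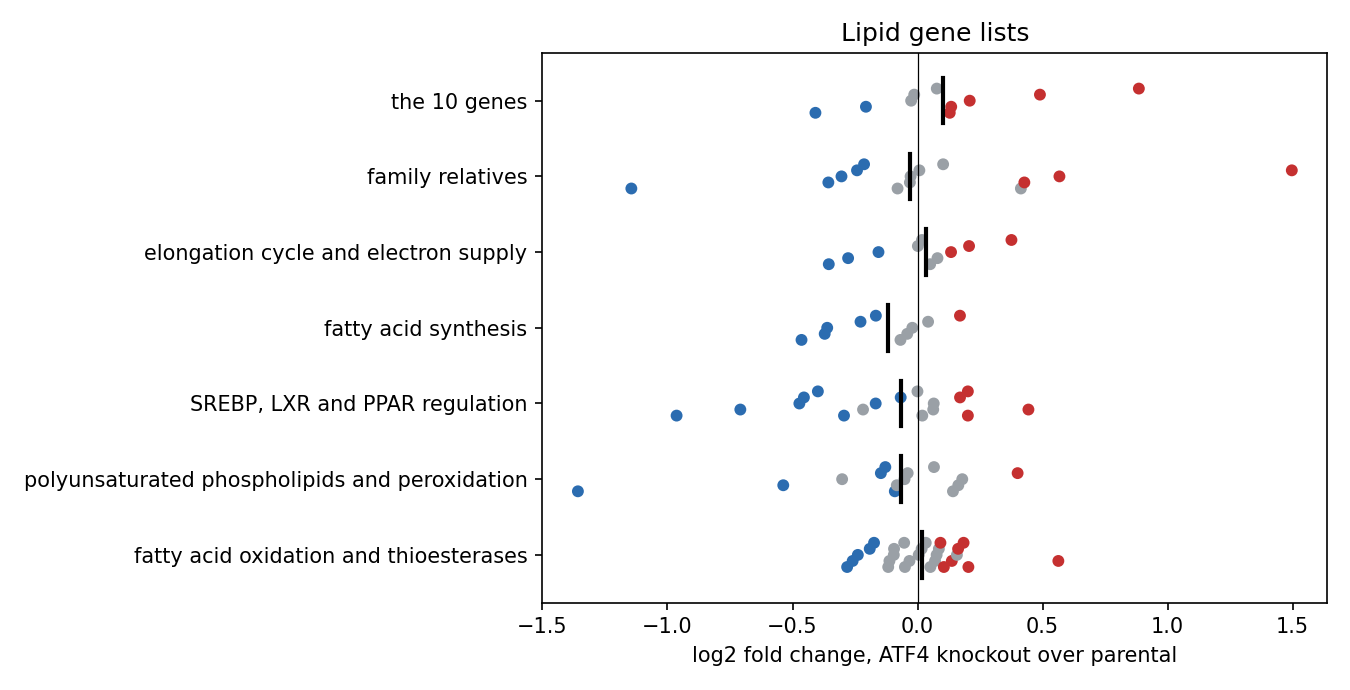
Change in ATF4 KO against parental cells (log2 fold change, n = 3 and 3) for the 10 genes and for the tested members of 6 lipid gene lists, red for called higher, blue for called lower and grey for not called, with a black bar at the list median. The medians lie between -0.12 (fatty acid synthesis) and 0.10 (the 10 genes), and each list holds called genes on both sides of 0.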

How the data were processed

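RNA sequencing was performed on 6 libraries of RCC4 cells. The authors deposited raw read counts for 60683 Ensembl genes. Per the labels, libraries were made with a stranded mRNA kit, and the submitters' processing notes name bcl2fastq 2.20, cutadapt, STAR, HTSeq and GRCh38. Other versions, the annotation release and the strand setting are not given in the sources that were used. Total counts were 41002611 to 46755358 per library.

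Symbols came from a gene name table (60370 identifiers) or GENCODE 29 (289), and coordinates and exon lengths from GENCODE 29. Genes were filtered by filterByExpr, scaled by TMM and compared with the quasi-likelihood F test of edgeR 4.0.16 (R 4.3.3) with robust dispersion and no replicate term. P-values were adjusted over 15321 tested genes (Benjamini-Hochberg), and genes below 0.05 were called. Intervals for log2 fold changes come from this fit. The 10 genes, the lipid gene lists and the rule for named genes were chosen with earlier results of these data known. By that rule each list named the 4 genes with the smallest p-values and every called gene of a direction holding at most 5, which gave 39 genes. FASN, ACACA, LPCAT3, SREBF2, PPARA and the SCD promoter were chosen after their values were seen. Ratios between relatives were log2 count ratios (pseudocount 0.5). They were compared with two-sided exact permutation tests, adjusted over 6 pairs.

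Alternatives were DESeq2 1.42.0, median-ratio (RLE) or total-count scaling, no filter, a filter at a mean of 1 CPM, a replicate block, removal of the median log2 fold change of 100 neighbouring genes (50 to each side), and each library left out in turn. Replicate numbers did not pair the libraries, since the deviations of same-numbered libraries from their group means correlated at -0.028, 0.0063 and -0.016. In simulated counts over 15131 genes, edgeR recovered 58% of 50 genes changed 1.2-fold, 70% at 1.5-fold, 76% at 2-fold and 100% at 4-fold, and 7.32% of all calls were unchanged genes. The simulation changed 50 genes at each fold, far fewer than the 42.0% of tested genes called in the data. Its rates therefore need not hold for this comparison. Some markers of other cell types are not reported here.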

Additional observations from a re-analysis of the deposited data

How the results depend on the processing

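The 10 genes gave 130 comparisons over 13 alternatives, of which 115 kept their direction and their side of the threshold, 9 lost the call, 2 gained one and 4 changed sign. SCD, SCD5 and ACSL4 were called in the same direction under all 13, with log2 fold changes of 0.43 to 0.52, 0.84 to 0.93 and -0.42 to -0.19. Their directions were known when the genes were chosen, and all 13 alternatives draw on the same libraries. Changes of sign were ELOVL1 with total-count scaling (0.00062), ELOVL5 with total-count scaling (0.013), without ATF4 KO replicate 2 (0.0091, the highest of the 6 fits that left out a library, the lowest being -0.050) and with the neighbour median removed (0.081), and in the last setting also CYB5R3 (0.0073), MCAT (0.068) and ATF4 (0.064). In that setting 3 genes of fatty acid synthesis were lower. Among polyunsaturated phospholipid and peroxidation genes 2 were higher with total-count scaling, no low-count filter, the replicate block or the neighbour median removed. Leaving out 1 library, this list held 1 to 2 higher and 3 to 7 lower genes, and 4 to 7 oxidation genes were higher. The replicate block changed no call of the 10 genes, with 5 higher and 2 lower, and called 6405 genes in all against 6428. The cause of these differences was not tested. With 3 libraries a group, 58% of simulated 1.2-fold changes were recovered. The simulation held far fewer changed genes than were called here, so this rate need not hold for these data.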
